A study of Mus musculus with 12 samples.

Results

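Small leucine-rich proteoglycans (SLRPs) were followed through 12 bulk RNA-seq libraries of newborn mouse testis. The set was fixed by gene name as Dcn, Bgn, Aspn, Lum, Fmod, Prelp, Omd, Ogn and Podn, and all 9 were present among the 54532 genes of the count table. Every animal carried the transgene Tg(Pou5f1-EGFP)2Mnn, in which a promoter of the germ cell gene Pou5f1 (OCT4) drives green fluorescent protein (GFP), so that fluorescent germ cells could be sorted at postnatal day 1 (PN1) from the somatic cells of the testis, which lack GFP. The dams received dexamethasone (dex), a synthetic glucocorticoid, at 10 μg per g of body weight, or saline as a control, at E17.5 and at E18.5 of gestation. Their pups received the same by injection at birth (PN0). This gave 4 groups of 3 male libraries: saline somatic, dex somatic, saline germ and dex germ. Per the study's methods each replicate pooled the testes of at least 2 separately dosed litters, so a library is a pool and not a single animal. The tunica vaginalis had been dissected off. The somatic fraction holds whatever lacked GFP, in the testis a mixture of Sertoli, interstitial, peritubular, vascular and blood cells.

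SLRPs are secreted proteins of connective tissue whose core is a chain of leucine-rich repeats, in most members carrying glycosaminoglycan side chains. They bind collagen fibrils and set fibril spacing and width, and several bind growth factors of the TGF-β family in the matrix. In the testis the cells known for making interstitial and peritubular matrix are the fibroblast-like stromal cells and the myoid cells around the tubules. The family is divided into classes by sequence: Dcn, Bgn and Aspn are class I, Lum, Fmod, Prelp and Omd class II, Ogn class III, and Podn class V.

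Library totals lay between 18459692 and 25178477 counts, and a count of 0 allows up to 3 counts, or 0.119 to 0.163 CPM (counts scaled to library size), which covers counting error only. The sort was checked with marker genes. The summed level of 7 germ cell markers was 2.58 to 6.32 CPM in somatic libraries and 2731 to 3013 CPM in germ libraries. The summed level of 8 Sertoli markers was 4448 to 5180 CPM in somatic and 36.8 to 71.4 CPM in germ libraries. No pair of replicates differed by less than sampling noise, and no library was left out.

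Of the SLRP genes, 7 lie in 3 neighbourhoods on mm10 (GRCm38). On chromosome 13, Aspn (49544443 to 49567565), Omd (49582462 to 49592822) and Ogn (49608046 to 49624501) are all transcribed from the plus strand within 80.1 kb. On chromosome 10, Dcn (97479609 to 97518143) and Lum (97565128 to 97572703) lie on the plus strand within 93.1 kb. On chromosome 1, Prelp (133910304 to 133921414, minus strand) and Fmod (134037254 to 134048277, plus strand) span 138.0 kb. Bgn lies on chromosome X (73483602 to 73495933, plus strand) and Podn on chromosome 4 (108014791 to 108096445, minus strand). The 3 genes of chromosome 13 sit inside the minus-strand gene Cenpp, which shares 7 of the 2354 exon bases of Aspn and none of those of Omd or Ogn. Podn overlaps the same-strand gene Scp2, which had 898 to 2059 counts a library and shares none of the exon bases of Podn. Whether reads were assigned by strand is not given in the sources used here, so reads from Prelp and from the antisense transcript Gm15851, which covers 9.68% of the exon bases of Prelp and had 0 to 17 counts a library, cannot be told apart there.

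Promoter windows, from 250 bases before the RefSeq start to 50 from it on (build GRCm38.p6), were at hand for 7 of the 9 genes, all but Dcn and Lum. The 3 windows printed here belong to the genes with an entry whose somatic level rose with dex, so that the letters can be read beside the values that follow. Capitals mark matches, on either strand, to TATAAA, the TATA box, and to TGTTCT, the half-site of the glucocorticoid receptor's response element.
Aspn: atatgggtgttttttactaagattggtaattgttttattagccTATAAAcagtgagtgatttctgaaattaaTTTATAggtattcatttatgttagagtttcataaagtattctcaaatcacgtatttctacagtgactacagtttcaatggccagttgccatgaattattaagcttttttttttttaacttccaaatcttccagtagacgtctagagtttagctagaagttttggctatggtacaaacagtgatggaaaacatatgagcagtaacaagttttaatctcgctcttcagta
Ogn: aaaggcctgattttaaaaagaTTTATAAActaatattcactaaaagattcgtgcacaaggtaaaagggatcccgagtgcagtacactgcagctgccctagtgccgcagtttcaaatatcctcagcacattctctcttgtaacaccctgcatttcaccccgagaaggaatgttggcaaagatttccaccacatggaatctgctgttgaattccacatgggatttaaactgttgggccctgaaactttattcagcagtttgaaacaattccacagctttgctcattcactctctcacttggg
Bgn: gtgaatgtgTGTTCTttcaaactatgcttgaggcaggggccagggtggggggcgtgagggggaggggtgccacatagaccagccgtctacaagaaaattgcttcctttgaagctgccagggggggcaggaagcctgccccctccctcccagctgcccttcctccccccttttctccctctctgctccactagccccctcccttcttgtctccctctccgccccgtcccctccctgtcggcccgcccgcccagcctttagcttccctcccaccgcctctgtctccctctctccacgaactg
The Aspn window is chr13:49544193-49544492, plus strand, and holds TATAAA matches starting 207 and 178 bases before the start. The Ogn window is chr13:49607765-49608064, plus strand, and holds overlapping TATAAA matches on opposite strands that begin 229 and 227 bases before the start. The Bgn window is chrX:73483351-73483650, plus strand, with a TGTTCT match 241 bases before the start. Over the 8 windows of SLRP genes, of which Podn has 2, TGTTCT occurred in 1, against 19.0% of all 32851 RefSeq promoter windows of this length. TATAAA occurred in 2 of the 8, against 13.6% of all windows, and GTCTG, the SMAD element, in 3 of the 8 (Fmod, Prelp and 1 Podn window), against 49.6%. The full element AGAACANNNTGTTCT was found in none of the 8 and in 0.009% of all windows. Such matches describe the letters only.

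In saline somatic cells Bgn was the highest SLRP transcript per length, followed by Dcn and Ogn. Levels between genes are given as FPKM, in which fragments are scaled to gene length and library depth, as mean ± SD of 3 libraries. Bgn stood at 133 ± 4.62 FPKM, Dcn at 93.2 ± 13.2 and Ogn at 49.7 ± 5.74, together 86.8 to 88.6% of the summed FPKM of the 9 genes in the 3 libraries. Below them came Lum at 22.3 ± 2.82 FPKM, Aspn at 8.51 ± 1.53, Fmod at 4.17 ± 1.58 and Prelp at 2.40 ± 0.316. Omd at 0.545 ± 0.189 FPKM and Podn at 0.416 ± 0.0859 were lowest. Neighbours in this order did not overlap over the 3 libraries, except Omd with Podn. In dex somatic libraries Aspn, at 31.1 ± 4.82 FPKM, stood above Lum, at 24.6 ± 3.61 FPKM, and their libraries did not overlap there either, so that the pair changed places. The rest of the order was the same in dex, again with only Omd and Podn overlapping.

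**Figure D1:**
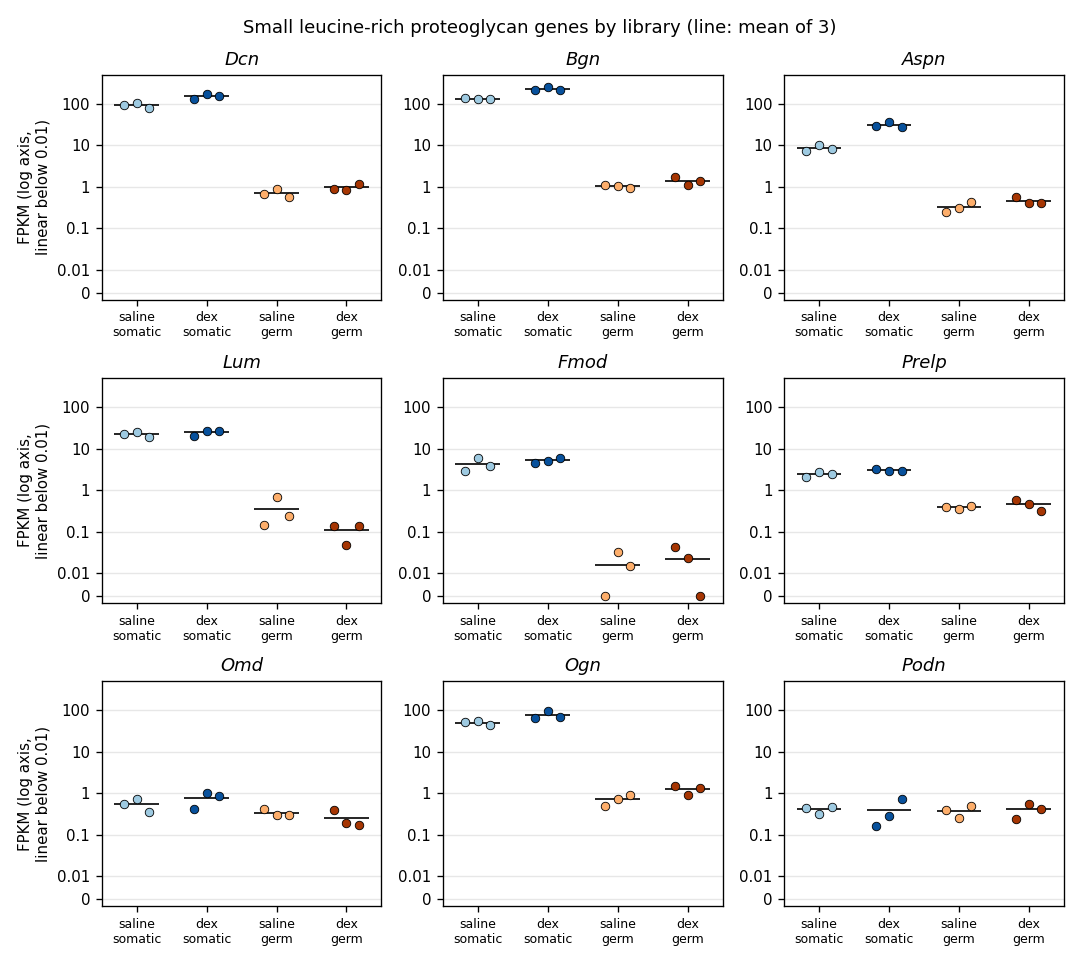
FPKM of each SLRP gene in every library (points; log axis, linear below 0.01 FPKM) for the 4 groups of 3, with the group mean as a line. The dex somatic points of Aspn, between 28.3 and 36.7 FPKM, stand clear of the saline somatic points, at most 10.2, while germ libraries lie far below the somatic ones for all genes but Omd and Podn.

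The first comparison asked how dex changed SLRP transcripts in somatic cells. Of the 9 genes, 4 rose (Aspn, Bgn, Dcn and Ogn) and none fell, by edgeR's quasi-likelihood test at a Benjamini-Hochberg adjusted p of 0.05 over all 16766 genes tested. Over all genes tested, 3.91% were called in either direction and 2.74% were called higher. Summed over the 9 genes, the level was 314 ± 25.4 FPKM in saline and 519 ± 65.4 FPKM in dex somatic libraries (SD, n = 3). The rise was largest for Aspn, while Bgn, Dcn and Ogn rose by similar, smaller amounts. All 3 class I genes and the class III gene rose, and none of the 4 class II genes passed the test. The classes were not compared by a test. The 95% confidence intervals of the class II genes reached up to 0.78 for Fmod, 0.73 for Prelp, 1.66 for Omd and 0.41 for Lum on the log2 scale. The median log2 fold change of the 9 genes was 0.47, against -0.0066 over all genes tested. The set was chosen with earlier results of these data known, so its share and median are a description and not independent evidence. In bulk RNA, a change in the number of cells of a type and a change in RNA per cell cannot be told apart.

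Aspn encodes asporin, a class I protein with a stretch of aspartates, which binds collagen and TGF-β. Its FPKM was 7.17, 10.2 and 8.19 in the saline somatic libraries and 28.4, 36.7 and 28.3 in the dex somatic libraries. Every dex library was thus far above every saline library. The log2 fold change was 1.87 ± 0.14 (SE, n = 3 against 3), a 3.64-fold rise (edgeR adjusted p = 3.02e-06). Its share of the summed FPKM of the 9 genes went from 2.71% ± 0.399 in saline to 5.99% ± 0.272 in dex, without overlap between the groups.

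Bgn encodes biglycan, a class I proteoglycan with chondroitin or dermatan sulfate chains that is also known as a soluble signal to innate immune receptors. Its FPKM was 138, 131 and 129 in saline somatic and 211, 252 and 209 in dex somatic libraries. The groups did not overlap, and the saline libraries lay close to each other. The log2 fold change was 0.75 ± 0.086 (SE), a 1.68-fold rise (edgeR adjusted p = 0.000102).

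Dcn encodes decorin, the class I proteoglycan best known for binding collagen fibrils and for holding TGF-β in the matrix. Its FPKM was 92.8, 107 and 80.1 in saline somatic and 133, 172 and 156 in dex somatic libraries. The lowest dex library was above the highest saline library. The log2 fold change was 0.72 ± 0.11 (SE), a 1.65-fold rise (edgeR adjusted p = 0.000986).

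Ogn encodes osteoglycin, also called mimecan, a class III member of connective tissue and bone. Its FPKM was 50.6, 54.9 and 43.5 in saline somatic and 65.6, 95.5 and 67.2 in dex somatic libraries. The groups did not overlap, though 1 dex library stood well above the other 2. The log2 fold change was 0.61 ± 0.13 (SE), a 1.53-fold rise (edgeR adjusted p = 0.0109). This call was lost in 4 of 15 alternatives, among them the fit without saline somatic replicate 3 (adjusted p = 0.0815); over all of them the adjusted p ran from 7.01e-09 to 0.122.

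Lum encodes lumican, a keratan sulfate proteoglycan that regulates fibril assembly. It shares its neighbourhood on chromosome 10 with Dcn. Its FPKM was 23.0, 24.7 and 19.2 in saline somatic and 20.4, 26.8 and 26.5 in dex somatic libraries. The groups overlapped, and the log2 fold change of 0.14 ± 0.13 (SE) had a 95% confidence interval of -0.13 to 0.41 (edgeR adjusted p = 0.658). Its share of the summed FPKM went from 7.08% ± 0.345 in saline to 4.74% ± 0.513 in dex, without overlap.

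Fmod encodes fibromodulin, a collagen-binding keratan sulfate proteoglycan. Its FPKM was 2.84, 5.91 and 3.74 in saline somatic and 4.60, 5.11 and 5.86 in dex somatic libraries. The highest value of all was a saline library, and the test was not passed (log2 fold change 0.31, 95% interval -0.15 to 0.78, edgeR adjusted p = 0.542). Prelp encodes a class II protein that links basement membranes to connective tissue. Its FPKM was 2.11, 2.74 and 2.37 in saline and 3.28, 2.95 and 2.90 in dex somatic libraries. These did not overlap as FPKM but did once scaled by TMM, and the log2 fold change of 0.33 (95% interval -0.063 to 0.73, edgeR adjusted p = 0.415) did not pass.

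Omd encodes osteomodulin, a class II protein of mineralized tissue, and Podn encodes podocan, a class V protein known from kidney and vessel wall. Omd had 26, 41 and 17 counts in saline somatic and 17, 47 and 39 in dex somatic libraries. Podn had 40, 34 and 44 counts in saline somatic and 13, 25 and 64 in dex somatic libraries. Both pairs of groups overlapped, and at this depth the 95% intervals of the log2 fold change were wide, -0.72 to 1.66 for Omd and -1.28 to 1.12 for Podn, so a change of the size seen for Bgn was not detectable. Of the exon sequence of Omd, 2.87% of 64-base words also occur in other genes, against none for the other 8.

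The 4 genes called were also the 4 whose dex and saline somatic libraries did not overlap in CPM scaled by TMM. Over all genes tested, 21.5% had groups that did not overlap. On chromosome 13 Aspn and Ogn were called and Omd, which lies between them, was not. On chromosome 10 Dcn was called and Lum was not, and on chromosome 1 neither Prelp nor Fmod was. The differences between neighbours were not themselves tested.

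**Figure D2:**
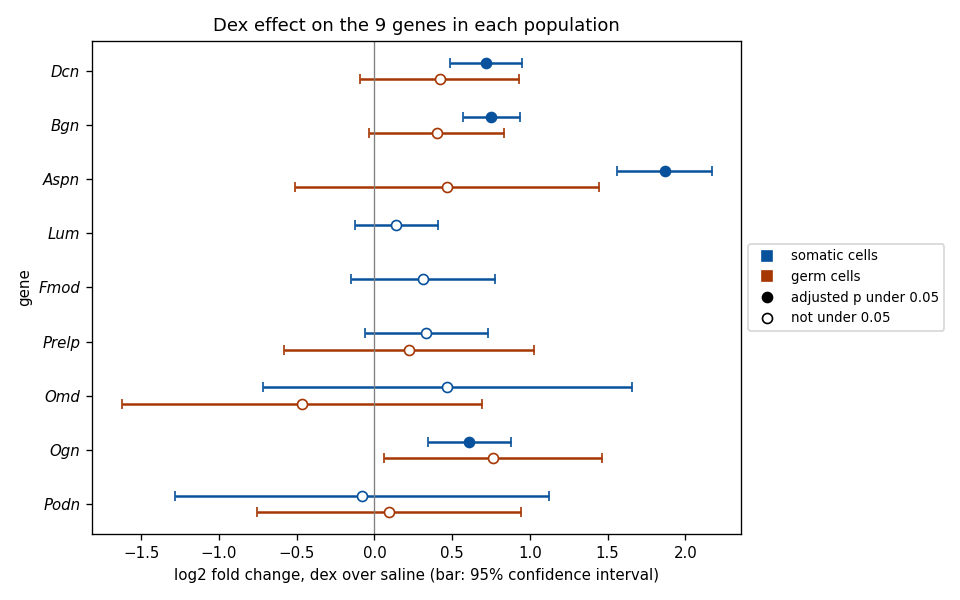
Log2 fold change of dex over saline (x axis) for the 9 SLRP genes (y axis) in somatic and germ cells, with 95% confidence intervals as bars and filled points for an adjusted p under 0.05. Filled points are Dcn, Bgn, Aspn and Ogn in somatic cells, at 0.72, 0.75, 1.87 and 0.61, and no germ point is filled; Lum and Fmod were not tested in germ cells.

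**Figure D3:**
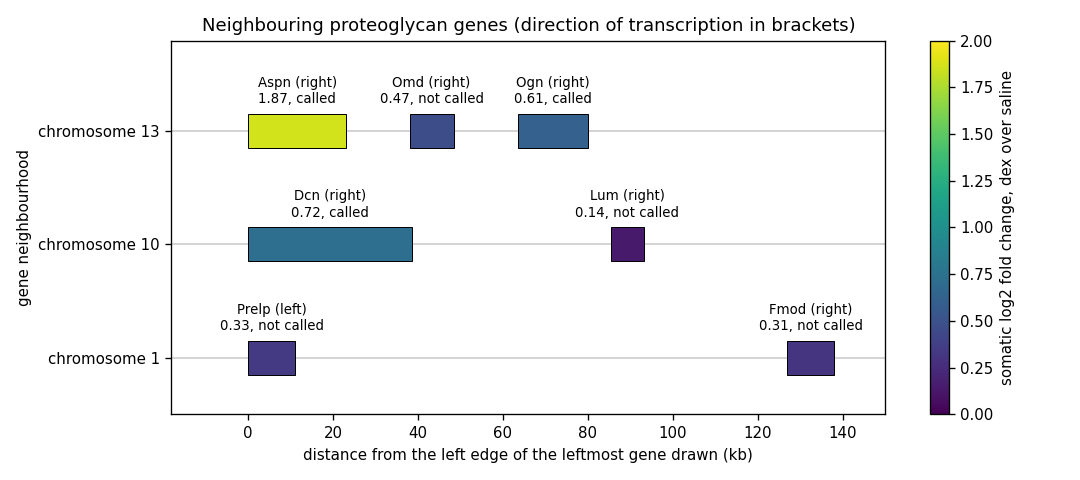
The 7 SLRP genes with SLRP neighbours, drawn to scale by distance in kb from the left edge of the leftmost gene of each neighbourhood and coloured by the somatic log2 fold change of dex over saline. Aspn (1.87) and Ogn (0.61) flank Omd (0.47, not called), and Dcn (0.72) neighbours Lum (0.14, not called).

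Markers of the somatic cell types moved with dex as well, and their part in the rise of the SLRP genes was not tested. Of 10 peritubular and stromal markers, 3 were called and all 3 rose: Dlk1, a marker of fetal stromal and steroidogenic progenitors, by 0.87 on the log2 scale, the receptor gene Pdgfra by 0.50 and the smooth muscle actin gene Acta2 by 0.44. All 10 had positive fold changes, with a median of 0.30, and their summed level was 4639 to 5121 CPM in saline and 6896 to 8230 CPM in dex somatic libraries. Much of that sum and of its rise was Dlk1, at a mean of 2301 CPM in saline and 4099 CPM in dex somatic libraries. None of the 10 was at 0. Of 8 macrophage markers 3 fell (Lyz2, Csf1r and Mrc1, by 1.87, 1.75 and 0.99 on the log2 scale), with a summed level of 54.7 to 93.8 CPM in saline and 24.3 to 34.7 CPM in dex. Of 4 erythroid markers tested Hbb-bs and Hbb-bt fell, of 6 fetal Leydig markers Star fell, and of 7 endothelial markers Tek fell. None of the 8 Sertoli, 4 mesonephric and epididymal epithelial, 3 mesothelial and tunica, 4 chondrocyte and tendon or 3 germ cell markers that were tested passed. The tendon marker Tnmd was at 0 in all saline somatic libraries.

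To set the SLRP genes beside the stromal markers of the same library, the mean log2 CPM of the 10 markers was subtracted from the log2 CPM of each gene. That marker mean itself was 7.28 ± 0.21 in saline and 7.62 ± 0.089 in dex somatic libraries, a difference of 0.34 without overlap. Relative to it, Aspn was -3.09, -2.82 and -2.81 in the saline and -1.48, -1.28 and -1.47 in the dex somatic libraries. Every dex library stood above every saline library, by 1.49 on average, and Bgn and Dcn differed by 0.37 and 0.35, also without overlap between the groups. Ogn differed by 0.22, with overlap. Lum differed by -0.24, with overlap. These relative levels are a description with no test, and the list mixes fibroblast-like and smooth muscle genes.

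**Figure D4:**
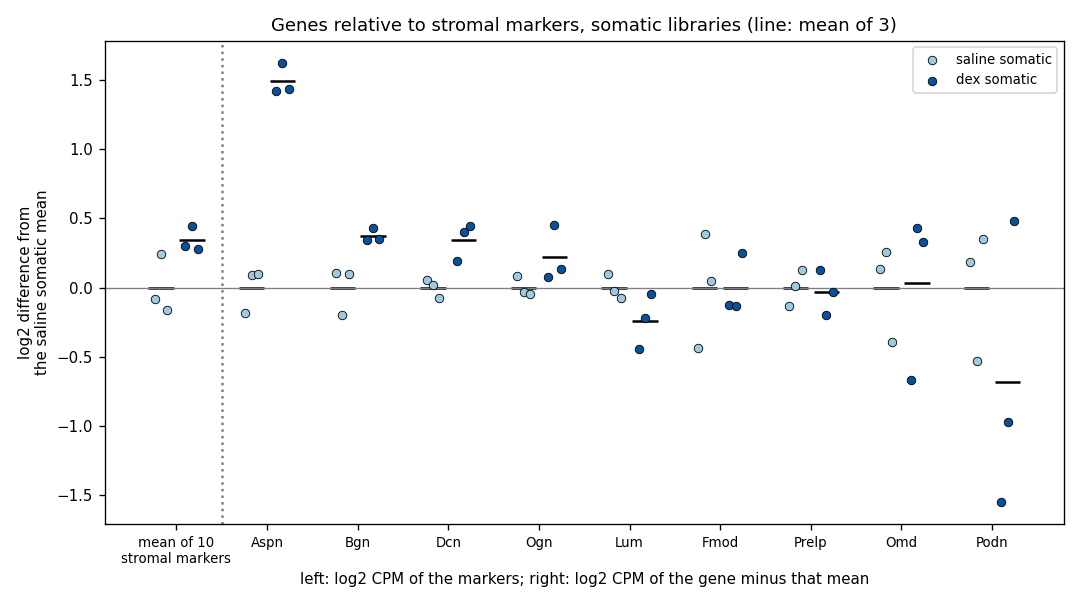
Somatic libraries only: on the left the mean log2 CPM of 10 stromal markers, on the right the log2 CPM of each SLRP gene minus that mean, both as differences from the saline somatic mean (y axis, log2), with points for libraries and lines for means of 3. Aspn stands 1.49 above saline after the subtraction, Bgn and Dcn 0.37 and 0.35, and the dex and saline points of Ogn, Lum, Fmod, Prelp, Omd and Podn overlap.

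Genes that work with SLRPs were read from 9 lists in the same somatic fit, in which 3.91% of all genes were called. Among 9 further SLRP family genes 5 were tested and 1 was called, Tsku (tsukushi, a secreted modulator of BMP and Wnt signalling), which rose by 0.80 on the log2 scale. Of 16 fibrillar collagen partners and cross-linking genes 10 were called, 9 higher and 1 lower. The highest were Lox, the collagen cross-linking lysyl oxidase, at 0.84 ± 0.15 (SE) and Col1a1, the main chain of type I collagen, at 0.82 ± 0.11, and the lowest were Col14a1, a fibril-associated collagen, at -0.74 ± 0.16 and Col5a1 at 0.48 ± 0.10. The median of this list was 0.51, against -0.0066 over all genes tested. The 9 lists too were chosen with earlier results of these data known.

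Genes for the enzymes that build the sugar chains were read next, against the same 3.91%. Of 21 tested genes of chondroitin and dermatan sulfate synthesis 3 were called: Chst15 and Chst12 rose (0.90 and 0.72) and Chst11 fell (-0.67), all sulfotransferases, with a median of 0.0023. Of 5 tested genes of keratan sulfate synthesis 1 was called, the sulfotransferase gene Chst1, which rose by 0.88 (median 0.048). Of 17 TGF-β and BMP ligands, receptors and latent binding proteins, the co-receptor gene Tgfbr3 and the latent TGF-β binding protein gene Ltbp4 rose, by 0.92 and 0.45, and the median was 0.0077.

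Proteases and their partners made up the next lists. Of 3 tested procollagen and SLRP propeptide proteases and enhancers, Tll1 (a tolloid-like protease) rose by 1.20 and Pcolce (the procollagen C-proteinase enhancer) by 0.41. Of 11 tested genes for proteases known to cleave SLRPs and their inhibitors, 5 rose, among them the inhibitor gene Timp2 by 0.70 and the protease genes Adamts4 by 0.60, Adamts1 by 0.49 and Mmp14 by 0.35 (median of the list 0.35). Of 8 tested genes for receptors reported for soluble SLRPs only Lrp1, an endocytic receptor, was called, at 0.33, with a median of -0.21. Of 17 other proteoglycans, 6 rose and 1 fell, with Gpc6 at 0.83, Cspg4 at 0.55, Gpc1 at 0.33 and Bcan at -0.42 (median 0.016).

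In germ cells the comparison of dex with saline called none of the 7 SLRP genes tested by edgeR, against 1.25% of all 18550 genes tested, and DESeq2 also called none. At an unadjusted p under 0.05 there was 1 of the 7, Ogn, against 14.7% of all genes tested. Lum and Fmod had too few counts to pass the filter on low counts. Of the 7, 6 had positive log2 fold changes, and the median was 0.40 against -0.0027 over all genes tested, but the intervals were wide at these counts. None of the 7 had groups that did not overlap in CPM scaled by TMM, against 20.1% of all genes tested.

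Ogn had 28, 36 and 48 counts in saline germ and 80, 61 and 70 in dex germ libraries. Every dex library had more counts than every saline library, but the FPKM of 0.483, 0.744 and 0.915 against 1.48, 0.906 and 1.31 overlapped narrowly. The log2 fold change was 0.76 ± 0.33 (SE), which edgeR gave an unadjusted p of 0.0345 and an adjusted p of 0.289. Bgn, with 152, 121 and 119 counts in saline and 219, 178 and 174 in dex germ libraries, had a log2 fold change of 0.40 (95% interval -0.033 to 0.84, edgeR adjusted p = 0.386). Its counts did not overlap between the groups either, but in CPM scaled by TMM they did.

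Dcn had 90, 97 and 68 counts in saline and 110, 131 and 140 in dex germ libraries, with a log2 fold change of 0.42 (95% interval -0.092 to 0.93, edgeR adjusted p = 0.451). Aspn had 13, 14 and 21 counts in saline and 29, 25 and 20 in dex germ libraries, with 0.46 (95% interval -0.51 to 1.44, edgeR adjusted p = 0.698). The Aspn groups overlapped by 1 library on each side. Prelp (24 to 31 counts in saline, 24 to 45 in dex), Omd (13 to 21 and 8 to 19) and Podn (20 to 42 and 22 to 61) overlapped between the groups, and their adjusted p values by edgeR were 0.845, 0.751 and 0.944. Lum had 8, 31 and 12 counts in saline and 7, 3 and 7 in dex germ libraries, so its groups did not overlap, with 1 saline library far above the rest. In the 7 alternatives that kept Lum, its log2 fold change was -2.12 to -1.36 and it was not called (adjusted p of 0.187 to 0.471).

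Around them in germ cells, 1 gene of the 9 lists was called. The lists hold 118 genes, of which some were not tested there. Over all genes tested, 1.25% were called. The count is thus not above the background. The gene was Tgfb1, the TGF-β1 ligand, which fell by 0.70 on the log2 scale (edgeR adjusted p = 0.0132). Stromal markers in germ libraries summed to 113 to 133 CPM in saline and 131 to 147 CPM in dex, with 9 of 10 fold changes positive, a median of 0.20 and none called. Among the Sertoli markers Inha fell by 0.90, all 8 had negative fold changes, and the sum was 59.5 to 71.4 CPM in saline and 36.8 to 48.2 CPM in dex. No germ, Leydig, endothelial, macrophage, erythroid, mesothelial, epithelial or chondrocyte marker tested there was called. The part of such somatic RNA in the germ values of the SLRP genes was not tested.

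A fit of all 12 libraries tested whether dex acted differently on the SLRP genes in germ and in somatic cells. No SLRP gene was called in this contrast, against 0.827% of all 20551 genes tested, and Aspn and Lum were under 0.05 without adjustment, against 13.3% of all genes tested. For Aspn the dex effect in germ cells was lower than that in somatic cells by a log2 difference of -1.36 ± 0.36 (SE; edgeR adjusted p = 0.0860). DESeq2 called it, with an adjusted p of 0.00912, and over all alternatives the adjusted p ran from 0.00465 to 0.246. For Lum the difference was -1.83 ± 0.59 (SE; edgeR adjusted p = 0.174), which rests on 3 to 31 counts a germ library; with no filter on low counts its adjusted p was 0.00172. Bgn, Dcn and Ogn differed by -0.32, -0.26 and 0.19, with 95% intervals of -0.69 to 0.045, -0.75 to 0.23 and -0.47 to 0.84, so a germ effect equal to the somatic one lay within them. In the same fit 4 genes of the lists were called: Chst11 at 0.94, and Col1a1, Tgfb1 and Timp1, a metalloprotease inhibitor, at -0.87, -0.85 and -1.32.

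The last comparison set germ against somatic cells within each treatment. SLRP transcripts were low in germ cells. In saline, 7 of the 9 genes were called, all lower in germ cells. Of all 18870 genes tested there, 76.5% were called in either direction, and 6929 genes were called lower. In dex, 8 of the 9 were called, all lower. Of all 18778 genes tested there, 76.3% were called in either direction, and 6712 genes were called lower. Most genes differed between these populations, so a share called in either direction near the background is not a result about SLRPs. The size was large, with a median log2 fold change of -6.15 in saline and -6.17 in dex, against 0.072 and 0.12 over all genes tested. Lum and Fmod, which had too few counts for the germ comparison, entered these fits through their somatic counts. A lower germ level was therefore nearly fixed in advance for both, and the saline median is the value of Lum.

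In saline germ libraries Bgn stood at 1.04 ± 0.0760 FPKM, Ogn at 0.714 ± 0.217, Dcn at 0.711 ± 0.158 and Fmod at 0.0156 ± 0.0161. The order between Bgn and Fmod was Ogn, Dcn, Prelp, Podn, Lum, Omd and Aspn, and neighbours overlapped except Bgn with Ogn, Dcn with Prelp and Aspn with Fmod. The fold change was -7.12 for Bgn, -7.16 for Dcn, -6.25 for Ogn, -6.15 for Lum, -4.80 for Aspn and -2.77 for Prelp on the log2 scale, all called by edgeR. Fmod had 0, 2 and 1 counts in saline germ and 3, 2 and 0 in dex germ libraries, so its germ level was 0.346% of the somatic level (95% exact interval 0.0713 to 1.01%) in saline and 0.449% (0.145 to 1.05%) in dex, on summed counts and covering counting error only.

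Omd and Podn were the exceptions. Their somatic level was itself near the bottom, and their germ level in saline was 59.8% and 86.8% of the somatic mean, so that the log2 fold changes of -0.80 and -0.26 did not pass (edgeR adjusted p = 0.165 and 0.575). In dex, Omd was called lower in germ cells (-1.69 ± 0.59 SE, edgeR adjusted p = 0.0204), with 8 to 19 counts against 17 to 47. That call was lost in 4 of 14 alternatives that could test it, including the fits without dex germ replicate 2, dex germ replicate 3 and dex somatic replicate 2 (adjusted p = 0.0853, 0.0813 and 0.0700), and the adjusted p ran from 0.0109 to 0.0910. Podn was not called in dex (-0.058, edgeR adjusted p = 0.931), where its direction turned under another scaling of the libraries.

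Germ levels of Dcn, Bgn, Ogn, Lum and Aspn in saline lay within the range of the 8 Sertoli markers. The 10 stromal markers ranged so widely that Prelp and Omd fell within their range too, so lying within it does not set genes apart. Medians of the other marker lists differed. In saline, germ CPM was 0.731% of the somatic mean for Dcn, 0.751% for Bgn, 1.38% for Ogn, 1.52% for Lum and 3.73% for Aspn. The median was 1.33% over 8 Sertoli markers (0.707 to 4.74%) and 2.05% over 10 stromal markers (0.334 to 70.8%). Fetal Leydig markers had a median of 3.02%, macrophage markers of 4.93%, erythroid markers of 1.02% and endothelial markers of 41.2% (10.4 to 180%). The median was 24.4% (0 to 821%) for mesothelial and tunica markers and 64.3% (6.69 to 5392%) for chondrocyte and tendon markers. It was 653% (15.8 to 1685%) for mesonephric and epididymal epithelial markers. These lists held genes higher in germ than in somatic libraries, such as Epcam at 172 against 10.2 CPM. Their medians therefore cannot be read as a share of somatic cells in the germ sort. Prelp, at 15.3%, lay above all Sertoli markers. In dex the SLRP median was 1.46% and the Sertoli median 0.987%. Whether these transcripts were made in germ cells or came with somatic cells or RNA in the sort was not tested.

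**Figure D5:**
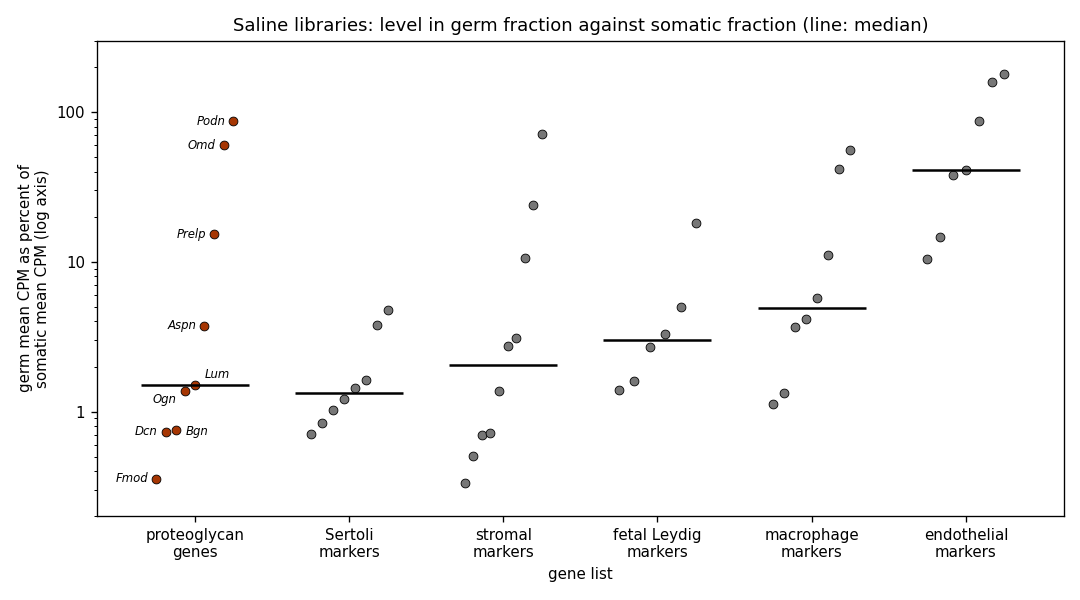
Mean CPM in saline germ libraries as percent of the mean in saline somatic libraries (log axis) for each SLRP gene and for markers of somatic cell types, with points for genes and a line at each median. Dcn and Bgn (0.731 and 0.751%) lie at the lower end of the Sertoli markers, while Omd and Podn reach 59.8 and 86.8%.

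Of the partner lists, 15 of 16 fibrillar collagen partners and cross-linking genes were called lower in germ than in somatic cells in saline (median log2 fold change -5.39). Of 7 tested further SLRP family genes 4 were called higher and 1 lower (median 1.41). Nyx and Podnl1 of that list passed the filter on low counts in the germ dex comparison but not in the somatic one. Where such genes enter through their germ counts, a higher germ level is nearly fixed in advance. In that fit 76.5% of all 18870 genes tested were called, 7512 higher and 6929 lower. The count of further SLRP family genes called was not above that share, so it is not a result about them.

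Over all 12 libraries, the genes whose log2 CPM was most like that of Bgn, out of 20542 candidates, were Mxra8 (a matrix remodelling-associated membrane protein), Txndc12 and Lpar1, with Pearson's r of 0.9996, 0.9991 and 0.9989. For Aspn they included A4galt and Acaa2, with r of 0.9977 and 0.9963. These are descriptions over libraries that fall into 2 populations, so that any gene with a large somatic excess scores high.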

How the data were processed

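The authors selected mRNA on poly-dT beads, aligned paired reads to mm10 with HISAT2 2.0.5 and counted reads per gene with featureCounts 1.5.0-p3. The annotation release and strand setting are not given in the sources used here. The deposited counts are raw counts for 54532 genes. The authors' FPKM values scale each count by gene length and, in every library, by a single constant, equal to the sum of its counts times a factor of 0.956 to 1.04. The authors' DESeq2 1.20.0 tables hold log2 fold changes, p-values and adjusted p-values and were not used.

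Groups and replicate numbers came from the labels. Counts were tested in R 4.3.3 with edgeR 4.0.16 (quasi-likelihood, TMM, filterByExpr at a minimum count of 10), fitting the 6 libraries compared, or all 12 for the difference between populations. A gene was called at a Benjamini-Hochberg adjusted p at or under 0.05 over all genes tested. Log2 CPM used a prior count of 2. Tests were tried on simulated data. Alternatives were DESeq2 1.42.0, limma 3.58.1 on log2(FPKM + 0.1) or log2(FPKM + 1), other scalings and filters, all libraries in one fit, a replicate block and leaving out each library. The fold on the FPKM scales understates changes of low genes.

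Library totals of 18459692 to 25178477 counts set the precision. Promoter windows came from RefSeq (GRCm38.p6). Gene coordinates are those of the count table and equal GENCODE M21 for the 9 genes.

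The SLRP genes, the 9 partner lists and the 10 marker lists were chosen with earlier results of these data known. The 9 SLRP genes are named whatever their values, and of each other list at most the 2 highest and 2 lowest called log2 fold changes. With Bgn and Aspn as the highest and the most changed, the 3 genes of highest correlation were named, except 1 for Aspn that is not reported here.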

Additional observations from a re-analysis of the deposited data

How the results depend on the processing

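Of 768 values recomputed under an alternative, 723 stayed the same. For fold changes this meant the same direction and side of the threshold, and for counts staying within 1.5 times. For dex to saline ratios of somatic mean levels, taken from CPM in place of FPKM, it meant differing by less than the SD of the ratio. In somatic cells 4 SLRP genes were called with dex, and 3 to 4 when each library was left out, with Aspn, Bgn and Dcn called in all 16 fits. In germ cells the count was 0 throughout. For germ against somatic cells it was 7 in saline in every fit that left out a library, and in dex 7 to 8, falling to 5 where at least 10 counts were required in every library, since low genes then could not enter. For the difference between populations 0 became 2 with no filter on low counts (Aspn, Lum) and 1 with at least 10 counts in every library, with DESeq2 and with limma on log2(FPKM + 1), Aspn each time. Directions turned only for genes that were not called in the comparison concerned. On the log2 scale, Podn in germ against somatic cells in dex was 0.0078 with at least 10 counts, 0.053 with DESeq2, 0.040 with its size factors, 0.12 with library totals, 0.16 and 0.029 on log2(FPKM + 0.1) and log2(FPKM + 1), 0.014 with no filter, 0.12 with the replicate block, and -0.43 to 0.73 without each library. With each library left out, the dex effect on Podn ran from -0.18 to 0.35 in germ and -0.88 to 0.28 in somatic cells, and that on Prelp in germ cells from -0.0097 to 0.41. The difference between populations was -0.30 and -0.29 for Fmod on the 2 FPKM scales and -0.21 for Ogn on the second. It ran, with each library left out, from -0.49 to 1.12 for Fmod, -0.064 to 0.39 for Ogn, -0.17 to 1.00 for Podn and -0.31 to 0.094 for Prelp. The cause of these turns was not tested. Replicate numbers recur across groups, and deviations of same-numbered libraries correlated at no more than 0.0450. Same-numbered germ and somatic libraries stood at 0.0376, 0.0450 and 0.0366 in saline, where all other pairs were negative (-0.0287 to -0.0086). In dex the same-numbered ones stood at -0.0029, -0.0164 and -0.0157. Correlations this small over all genes tested cannot decide whether the numbers mark pairs, and the main fits did not pair them. The replicate block left 4 SLRP genes called in somatic cells. It left 7 instead of 8 in germ against somatic cells in dex, where Omd was lost (edgeR adjusted p = 0.0910). Over all genes, 655 were called in somatic cells, against 1061 with no filter, 251 and 281 on the FPKM scales and 354 at the lowest without a library. In germ cells 231 were called, against 767 with no filter, 675 with DESeq2, 6 and 12 on the FPKM scales, 142 with all libraries, 65 with the block and 49 at the lowest without a library. For the difference 170 were called, against 706, 620, 262 with at least 10 counts, 57 on the first FPKM scale, 90 with the block and 79 at the lowest without a library. Scaling to library totals turned the somatic split of 459 higher and 196 lower into 379 and 329, and that of the difference from 85 and 85 into 148 and 73. It moved the median of all genes in germ against somatic cells from 0.072 to 0.21 in saline and from 0.12 to 0.30 in dex, and left 7 and 8 SLRP genes called. Depth limits Fmod and Lum in germ cells and Omd and Podn throughout.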
